A study of Sus scrofa domesticus with 4 samples.

Results

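Steroidogenic enzymes turn cholesterol into progestagens, androgens, oestrogens and glucocorticoids, and they were examined here through 6 genes in the muscular wall of the uterus (myometrium) of early pregnant pigs. Members were all non-control probes of the microarray whose transcript accession belongs to STAR, CYP11A1, CYP17A1, CYP19A1, HSD17B4 or HSD11B1 in RefSeq. This gave 22 of 43603 probes, and 6 of the 3029 genes that could be named on the array. STAR and HSD11B1 had 6 probes each, CYP11A1 and HSD17B4 had 3 each, and CYP17A1 and CYP19A1 had 2 each.

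The tissue came from 4 mature crossbred gilts (Large White x Polish Landrace), 7 to 8 months old and on days 15 to 16 of gestation. Pieces from the middle of the uterine horns were preincubated for 2 h and then kept as explants for 24 h, either with orexin A (OXA), a neuropeptide with receptors in peripheral organs, or without it. The dose is 10 nM in the sample labels and 10 µM in the series' design text. The medium held serum stripped with dextran and charcoal, a step that removes steroids. Cultures were set up in duplicate in 4 experiments, and each of 4 arrays compared RNA of OXA-treated tissue with RNA of non-treated tissue. By the sample labels the dyes were swapped, so that OXA RNA carried Cy5 on arrays 1 and 3 but Cy3 on arrays 2 and 4. The labelling protocol can instead be read as OXA in Cy5 throughout. The labels do not state that both RNAs of an array came from 1 gilt, so p-values rest on the spread between these arrays. Those from limma, the linear model used for testing, also draw on the spread of all tested probes.

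Steroid synthesis starts when STAR, a cholesterol carrier, delivers cholesterol to the inner mitochondrial membrane, where CYP11A1 cuts its side chain to give pregnenolone. CYP17A1 leads from there to the androgens, and CYP19A1 (aromatase) turns androgens into oestrogens. HSD17B4, a peroxisomal enzyme, oxidises oestradiol to the weaker oestrone and also serves fatty acid oxidation, while HSD11B1 regenerates cortisol from cortisone. In the pig, oestrogen from the conceptuses is the signal that maintains early pregnancy, and aromatase is encoded by several neighbouring paralogues.

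The share of probes detected (well above background) per array was 39.9% to 49.7% for OXA and 41.5% to 61.1% for non-treated RNA, with the highest share in the non-treated channel of array 4. Across 19505 tested probes, which are not independent, log2 ratios of OXA over non-treated on array 2 correlated at r = -0.59 with array 1, at r = -0.30 with array 3 and at r = -0.38 with array 4, which has the same dye orientation. Array 3 correlated at r = 0.23 with array 1 and at r = -0.06 with array 4, and arrays 1 and 4 at r = 0.62. These correlations alone do not settle the direction of array 2. The estimates of the member genes, the counts of signs and the pathway estimates are therefore also given with array 2 turned. Array 2 is turned because of these correlations, so the arrays agree more after turning by construction. In the turned fit array 4 is alone in its dye orientation and weighs as much as the other arrays together. Turned estimates thus differ from the labelled ones by more than the sign of array 2. Values listed by array, means and marker medians are in the direction of the sample labels, and turning array 2 reverses the sign of its value. Of 9 smooth muscle markers, 5 were on the array by name (ACTA2, CNN1, DES, SMTN and MYLK), and all 5 were measured. Their summed signal was 202439 to 462534 in OXA channels and 172389 to 568912 in non-treated channels.

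The front end of the pathway gave signals near background. The scanner's test for a spot well above background was failed by all 6 STAR, all 3 CYP11A1 and both CYP17A1 probes in every OXA channel. In non-treated channels, 3 STAR probes and 2 CYP11A1 probes passed it on 1 array each, always array 4, and CYP17A1 passed on none. Together with the second CYP19A1 probe, this leaves 12 probes that were not measured, with 0 of 48 readings well above background for OXA and 5 of 48 for non-treated tissue. On array 4, which held all 5, 61.1% of all non-control probes passed for non-treated and 44.6% for OXA RNA. The uneven count is therefore not read as a difference in these genes. Their processed signals were 6.09 to 53.6 for OXA and 5.33 to 41.4 for non-treated tissue, and the scanner's error on their log2 ratios had a median of 1.77. No ratio is read from them.

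No fold is given for the 5 probes that passed in the non-treated channel of array 4 alone, since they were not well above background in any other channel. On that array, 2 of them were brighter for OXA: A_72_P545357 of CYP11A1 (48.3 against 39.6) and A_72_P722403 of STAR (53.6 against 41.4). By the scanner's weaker test for a positive and significant spot, 3 STAR and 2 CYP11A1 probes were detected. STAR and CYP11A1 thus did not pass the stricter test in the OXA channels, which does not show that the transcripts were absent.

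The other 10 probes were detected with both RNAs on every array: 1 of CYP19A1, 3 of HSD17B4 and 6 of HSD11B1. No spot of any member carried an outlier flag. The plot of signals shows this gap between both sets of probes.

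**Figure D1:**
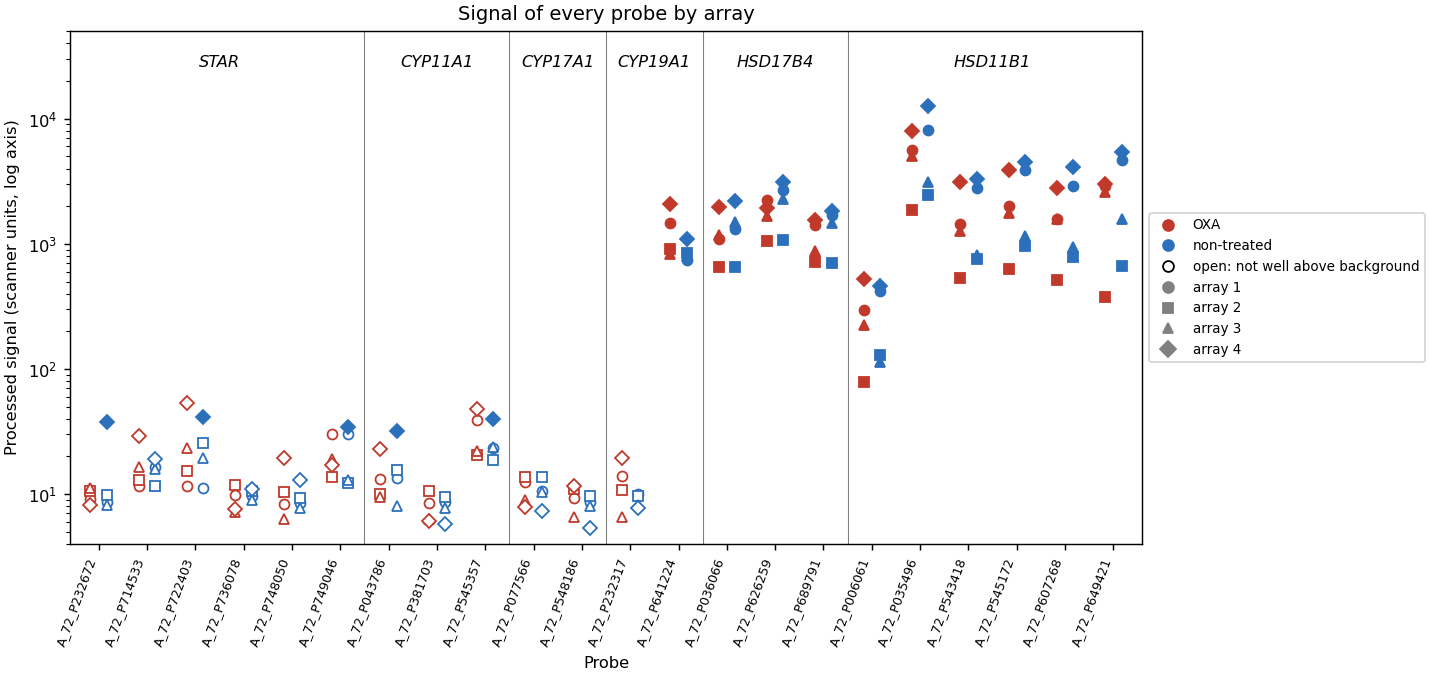
Processed signal (scanner units, log axis) of each of the 22 probes, with OXA in red left of non-treated in blue and 1 symbol per array. Filled symbols are well above background, open ones are not. The 12 unmeasured probes lie between 5.33 and 53.6, and levels of different probes are not comparable with each other.

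The aromatase gene CYP19A1 was measured by probe A_72_P641224. Its OXA signals were 1460, 915, 822 and 2071 on arrays 1 to 4, against 742, 849, 796 and 1093 for non-treated tissue. OXA signals were the higher ones on every array, by a wide margin on arrays 1 and 4 and by a narrow one on arrays 2 and 3. The log2 ratios were 0.98, 0.11, 0.05 and 0.92, each with a scanner error of 0.21 to 0.22. On arrays 1 and 4 the ratio was 4.37 and 4.17 times that error, and on arrays 2 and 3 it was 0.53 and 0.23 times the error. The mean was 0.51 ± 0.50 (SD, n = 4), or 1.43-fold. Since explants are mixed tissue, fewer cells of a type and less RNA per cell cannot be told apart in any of these values.

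This difference did not pass the test. The limma estimate had a 95% interval of -0.24 to 1.26 (adjusted p = 0.998), and an exact two-sided sign-flip permutation test gave the smallest p that 4 arrays allow, which is above the threshold of 0.05. limma called 0 of the 10 member probes and 0% of 19505 tested probes, with 0 of the 10 at an unadjusted p under 0.05 against 1.2% of all tested probes. A log2 ratio above 0 on all 4 arrays, as for CYP19A1, was found for 3.96% of tested probes and for 1 of the 10. This held for 17.7% of tested probes and for 0 of the 10 with array 2 turned, since CYP19A1 was then below 0 on that array. With array 2 turned the estimate was 0.61, in a fit where array 4 weighs as much as the other arrays together. The estimate was 0.28 without array 1 and 0.31 without array 4, where the array left alone in its dye orientation weighs as much as the others together. It was -0.0020 under the reading of the labelling protocol that gives OXA the Cy5 dye throughout. That fit has no dye term, since OXA and dye cannot then be told apart.

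The second CYP19A1 probe, A_72_P232317, did not share this signal. It read 14.0, 10.8, 6.58 and 19.5 in OXA channels, against 10.1, 9.74, 8.14 and 7.76 in non-treated channels, with none well above background. In the RefSeq gene table of assembly Sscrofa11.1, CYP19A1 lies between its paralogues CYP19A3 and CYP19A2. The 1 probe of CYP19A2 and both probes of CYP19A3 were undetected with both RNAs on all 4 arrays. Aromatase signal in these explants thus rests on 1 of 5 probes for the 3 paralogues, and which transcript that probe binds was not tested.

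HSD17B4, which removes active oestradiol, had log2 ratios on the other side of 0. Its brightest probe, A_72_P626259, had OXA signals of 2243, 1056, 1660 and 1936 on arrays 1 to 4, against 2714, 1081, 2279 and 3122 for non-treated tissue. OXA signals were lower on each array, least so on array 2. The log2 ratios were -0.27, -0.03, -0.46 and -0.69, with a mean of -0.36 ± 0.28 (SD, n = 4), or 0.777-fold. The other 2 probes averaged -0.20 ± 0.15 and -0.31 ± 0.31 (SD, n = 4). All 3 probes gave -0.28 to -0.26 on array 1 and -0.03 to 0.02 on array 2, whereas they spread from -0.73 to -0.35 on array 3 and from -0.69 to -0.16 on array 4. They bind transcripts of 1 gene in the same RNA and are not replicates.

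The HSD17B4 difference did not pass the test either, with a 95% interval of -1.02 to 0.29 (limma adjusted p = 0.998) and again the smallest sign-flip p that 4 arrays allow. Ratios below 0 on all 4 arrays were found for 2 of its 3 probes, and for 3.76% of all tested probes. Neither of the 2, with array 2 turned, stayed below 0 throughout, A_72_P689791 did so, and the share was 17.8% of tested probes. The estimate was -0.46 with array 2 turned, -0.20 without array 4 and -0.0023 with OXA taken as Cy5 throughout. Array 4 in the turned fit, and array 2 in the fit without array 4, weigh as much as the others together.

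**Figure D2:**
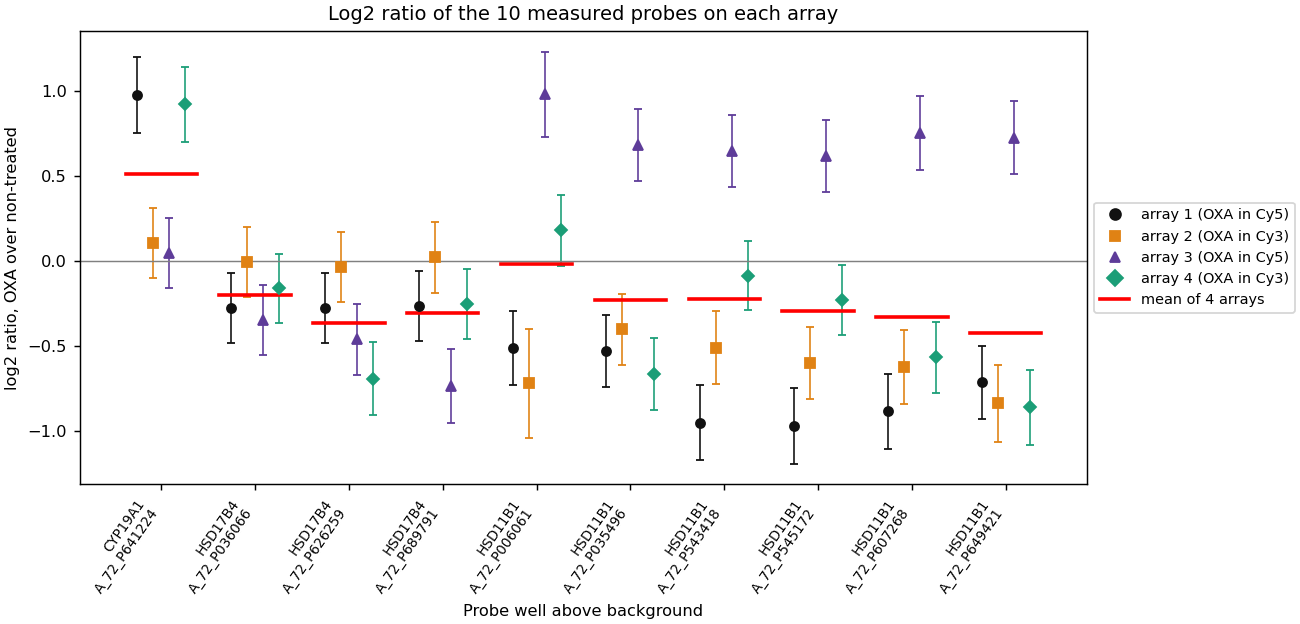
Log2 ratio of OXA over non-treated for the 10 measured probes on each of 4 arrays, with the scanner's error as bars and the mean as a red line. CYP19A1 is near 1 on arrays 1 and 4 and near 0 on arrays 2 and 3, and all 6 HSD11B1 probes are above 0 on array 3.

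HSD11B1, the cortisol-regenerating enzyme, differed in sign between arrays. Its brightest probe, A_72_P035496, had OXA signals of 5668, 1866, 5035 and 7988 on arrays 1 to 4, against 8169, 2460, 3136 and 12629 for non-treated tissue. The OXA signal was lower on arrays 1, 2 and 4 and higher on array 3. Log2 ratios were -0.53, -0.40, 0.68 and -0.66, which is -2.51, -1.92, 3.20 and -3.11 times the scanner's error. The gene's 6 probes followed each other on arrays 1 to 3, with ranges of -0.97 to -0.51, -0.83 to -0.40 and 0.62 to 0.98. On array 4 they spread from -0.86 to 0.18, and A_72_P006061, the dimmest of them, was the 1 probe above 0 there.

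The mean over arrays was -0.23 ± 0.62 (SD, n = 4) for the brightest probe and between -0.42 and -0.02 for the 6 probes. The spread between arrays exceeded the mean for each of them. The 95% interval was -0.98 to 0.52 (limma adjusted p = 0.998), and the exact sign-flip permutation p was 0.625. The estimate was -0.24 with array 2 turned, 0.077 without array 1, -0.53 without array 3 and 0.30 with OXA in Cy5 throughout. In the first 3 of these fits the array alone in its dye orientation weighs as much as the others together. That is array 4 in the turned fit, array 3 without array 1 and array 1 without array 3. The sign without array 1 therefore depends on this weight of array 3.

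Marker medians of some cell types had the sign of these ratios. Medians of the smooth muscle markers were -0.44, -0.11, 0.40 and -0.61 on arrays 1 to 4, and those of 3 fibroblast markers (DCN, LUM and COL1A2, of 6 listed) were -0.14, -0.43, 0.19 and -0.59. Both medians had the sign of HSD11B1 on each array, but not every marker did. Of the 3 fibroblast markers, 1 was below 0 on all 4 arrays, and 1 of the 5 smooth muscle markers had a positive estimate. The summed fibroblast signal was 40563 to 51064 in OXA channels and 45591 to 71630 in non-treated channels. Macrophage markers (6 of 9 measured) had medians of 0.70, -0.66, 1.62 and 0.73, with sums of 1166 to 7893 for OXA and 1335 to 4633 for non-treated tissue. Of 6 adipocyte markers 1, LEP, was measured, at -0.32, 0.59, 0.10 and -0.57 (signals 71.5 to 142 for OXA and 77.7 to 192 for non-treated tissue), and PLIN1 was undetected. Endothelial markers (5 of 7 measured) had medians of -0.42, -0.35, 0.06 and 0.54, with sums of 4412 to 11639 for OXA and 5734 to 8615 for non-treated tissue. The part of these cell types in the HSD11B1 ratios was not tested.

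CYP19A1 was set beside markers of tissues known to make oestrogen. Of 9 ovarian and luteal markers, 7 were on the array and 3 were measured (INHBA, OXT and AMH), with medians of 0.63, -0.17, -0.02 and 0.74. INSL3 was not well above background anywhere, and INHA, FSHR and LHCGR were too dim to be tested. The summed signal of the 3 measured markers was 7386 to 21078 for OXA and 6163 to 12333 for non-treated tissue. Of 9 trophoblast markers, 5 were on the array and 1, IL1B2, was measured, with 0.62, -0.16, 0.35 and 1.53 and signals of 272 to 798 for OXA and 214 to 425 for non-treated tissue. IFNG and CDX2 were undetected throughout. Epithelial markers (7 of 10 measured) had medians of -1.15, 2.06, -0.90 and 1.53, with sums of 6097 to 35281 for OXA and 6570 to 15310 for non-treated tissue. The medians over all 1985 named genes were also higher on arrays 1 and 4, at 0.25, -0.22, 0.02 and 0.29. The part of these tissues in the CYP19A1 ratio was not tested.

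**Figure D3:**
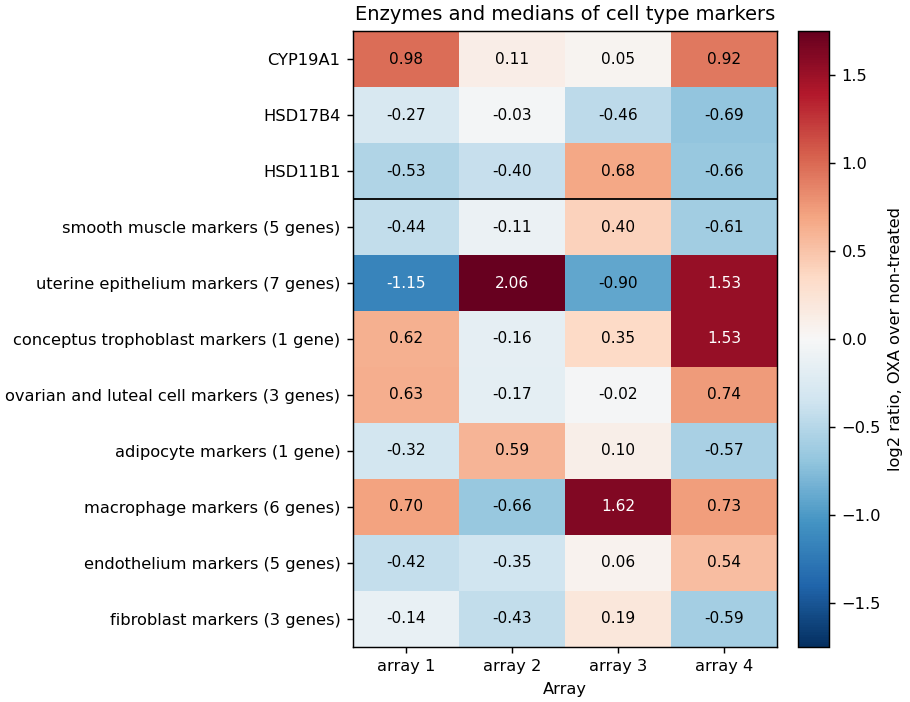
Log2 ratio of OXA over non-treated on each array for the brightest measured probe of the 3 enzymes (above the line) and the median of each list of cell type markers (below it). HSD11B1 and the smooth muscle and fibroblast medians are above 0 on array 3 alone. CYP19A1, the ovarian and luteal median and the trophoblast marker are higher on arrays 1 and 4 than on arrays 2 and 3.

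The genes whose ratios lay nearest to those of CYP19A1 were found by the mean absolute difference over the 4 arrays, among the brightest probes of 1982 other named genes. IGFBP3, a carrier of insulin-like growth factors, was nearest with a mean difference of 0.05 and log2 ratios of 0.84, 0.13, 0.05 and 0.88. OXT, the oxytocin precursor, followed with 0.10 and ratios of 0.90, 0.15, 0.32 and 0.89. As OXT is also 1 of the 3 measured ovarian and luteal markers, its likeness and theirs are not separate observations. SLC35C1, a GDP-fucose transporter, SEC14L2, a lipid-binding protein, and EGFL8 differed by 0.11 to 0.12. Each of the 5 genes had 1 tested probe. With 4 arrays such likeness is a description only.

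The rest of the pathway was taken from lists of 82 other genes for cholesterol supply and transfer, steroid conversion and its regulation. Of these, 45 were on the array by name and 29 had a measured probe. limma called 0 of the 29, with 0 at an unadjusted p under 0.05. Estimates were above 0 for 19 and below 0 for 10, with a median of 0.09, while the 1985 named genes tested had 1215 above 0, 770 below 0 and a median of 0.08. The list's median by array was 0.38, -0.28, -0.02 and 0.34, against 0.25, -0.22, 0.02 and 0.29 over all named genes. With array 2 turned, 21 estimates were above 0 and 8 below, and the list's median was 0.25. The turned fit gives array 4 as much weight as the other arrays together, so these values do not reflect the sign of array 2 alone. The sign of 8 of the 29 estimates differed between the labelled and the turned fit.

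HSD3B1, which makes progesterone from pregnenolone, was the 1 measured gene among the hydroxylases and 3beta-hydroxysteroid dehydrogenase. Probe A_72_P108371 was well above background on 3 arrays in the OXA channel and on 1 in the non-treated channel. Its signals were 37.9 to 116 for OXA and 32.5 to 64.5 for non-treated tissue, and its log2 ratios were 1.04, -0.21, 0.50 and 0.85. The gene was tested through the OXA channel alone, in which it was the brighter, so these ratios are against a non-treated channel mostly not well above background. The mean was 0.54 ± 0.55 (SD, n = 4; limma adjusted p = 0.998), and 0.21 after loess normalization. With array 2 turned the estimate was 0.72. The gene's second probe and all 3 probes of CYP21A2, the 21-hydroxylase, did not reach the detection limit for testing.

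Cholesterol supply had 8 measured genes, 7 of them with positive estimates. SCARB1, a receptor for high-density lipoprotein, was above 0 on all 4 arrays at 0.31, 0.28, 0.10 and 0.45 (mean 0.29 ± 0.14, SD, n = 4). Its dimmer measured probe disagreed, with -0.18, -0.53, 0.20 and 0.54. SREBF1, a transcription factor of lipid synthesis, averaged 0.34 ± 0.58, and NPC1, which exports cholesterol from lysosomes, averaged 0.26 ± 0.71 (SD, n = 4). With array 2 turned, SCARB1 had 0.24 and was above 0 on 3 arrays, SREBF1 had 0.49 and NPC1 0.46. SREBF1 and NPC1 were below 0 on array 2 and above 0 elsewhere. By limma, none of the 3 genes came below an adjusted p of 0.998 in the labelled direction.

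Carriers of cholesterol into mitochondria other than STAR had 6 measured genes, 3 above and 3 below 0. TSPO, an outer mitochondrial membrane protein that binds cholesterol, had 0.17, 0.23, 0.20 and 0.03, with a mean of 0.16 ± 0.09 (SD, n = 4). ACBD3 averaged 0.29 ± 0.28 and VDAC1, a mitochondrial pore, 0.13 ± 0.50. Their dimmer measured probes averaged 0.03 for ACBD3 and 0.33 for VDAC1. The estimates with array 2 turned were 0.04 for TSPO, -0.03 for ACBD3 and 0.48 for VDAC1. The electron donors of steroid cytochromes were all 4 measured. FDXR, ferredoxin reductase, averaged 0.35 ± 0.36, POR, the donor for CYP17A1 and aromatase, 0.33 ± 0.75, and CYB5A, a cytochrome b, -0.29 ± 0.57 (SD, n = 4). The dimmer measured probe of POR averaged 0.0013, and those of CYB5A averaged -0.56 to -0.38. Turning array 2 gave 0.44 for FDXR, 0.77 for POR and -0.52 for CYB5A. No interval of these genes left out 0 in the labelled direction.

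Among the other 17beta-hydroxysteroid dehydrogenases, HSD17B7 averaged -0.10 ± 0.18, HSD17B8 -0.01 ± 0.43 and HSD17B13 0.06 ± 0.39 (SD, n = 4). HSD17B13 was well above background on 3 arrays for OXA and on 2 for non-treated tissue, and was tested through the OXA channel alone. Turned estimates were -0.21 for HSD17B7, 0.19 for HSD17B8 and 0.15 for HSD17B13. HSD17B1, which makes oestradiol, was not well above background in any OXA channel and was so on 1 array in the non-treated channel. HSD11B2, which inactivates cortisol, was well above background on 1 array for OXA and on 2 arrays for non-treated tissue and was not tested. Of the regulators, the 3 probes of NR5A1, the master factor of steroidogenic tissues, were undetected throughout. CEBPB averaged 0.09 ± 1.23, GATA6 -0.07 ± 0.85 and PRKAR1A, a regulatory subunit of protein kinase A, -0.07 ± 0.16 (SD, n = 4). Turning array 2 gave 0.97 for CEBPB, 0.25 for GATA6 and -0.03 for PRKAR1A. In other steroid metabolism, CBR1, a carbonyl reductase, averaged 0.13 ± 0.74 and the sulfotransferase SULT2A1 -0.16 ± 1.14 (SD, n = 4). SULT2A1 was well above background on 1 array for OXA and on 3 for non-treated tissue, and was tested through the non-treated channel alone. The turned estimates were 0.64 for CBR1 and -0.56 for SULT2A1.

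**Figure D4:**
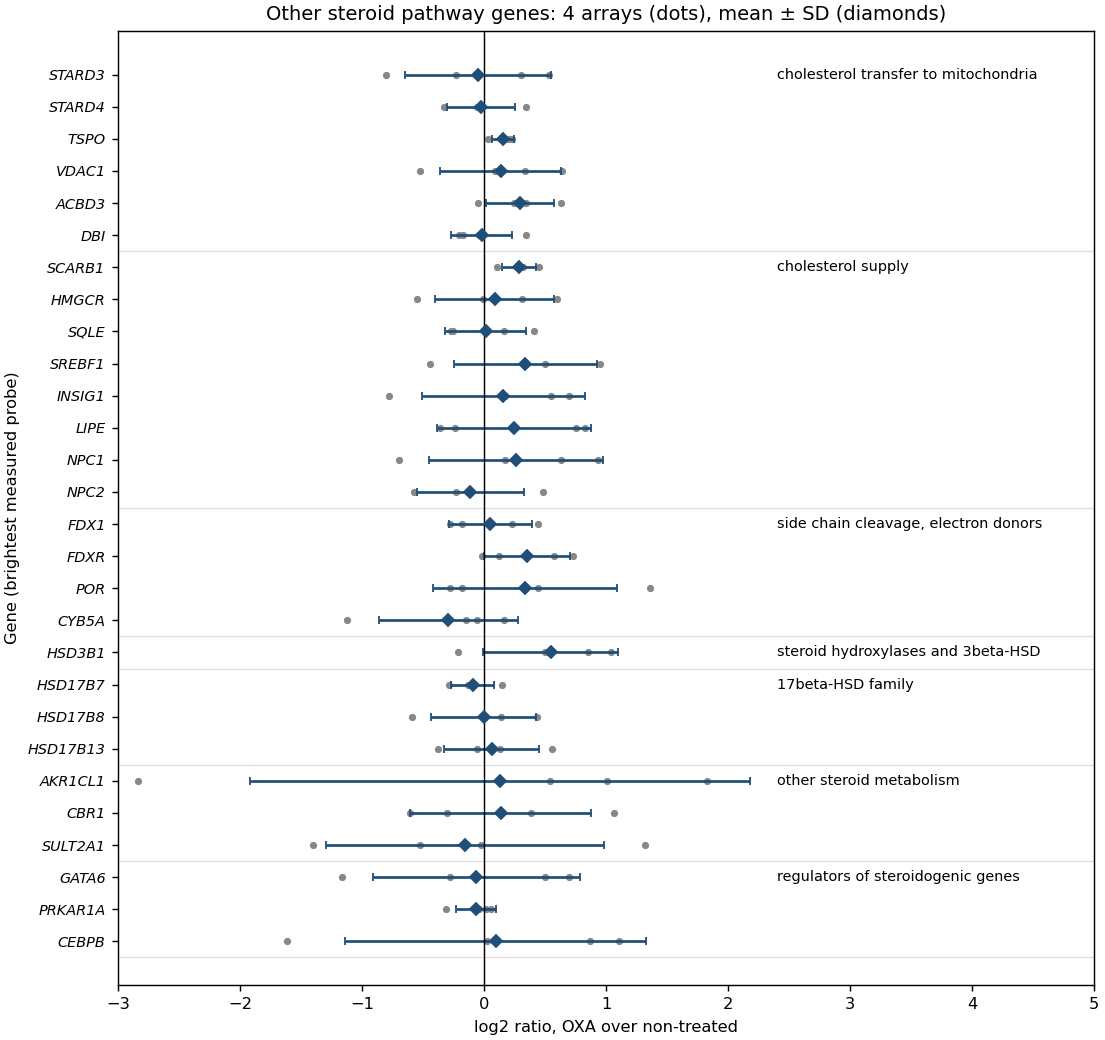
Log2 ratio of OXA over non-treated for the brightest measured probe of 28 of the 29 other pathway genes, as 4 arrays (dots) and their mean ± SD (diamonds), by list. Of the 28 means, 18 are above 0, and SCARB1 and TSPO are the 2 genes with every array above 0. With array 2 turned, 20 of the 28 estimates are above 0, and 7 of the 28 genes are above 0 on every array, but neither SCARB1 nor TSPO is. Over all tested probes, 3.96% are above 0 on every array as labelled and 17.7% with array 2 turned. Turned estimates give array 4 as much weight as the other arrays together.

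The estimates of the 3 measured enzymes were recomputed under other processing. In the plot of alternatives, every interval of CYP19A1, HSD17B4 and HSD11B1 includes 0.

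**Figure D5:**
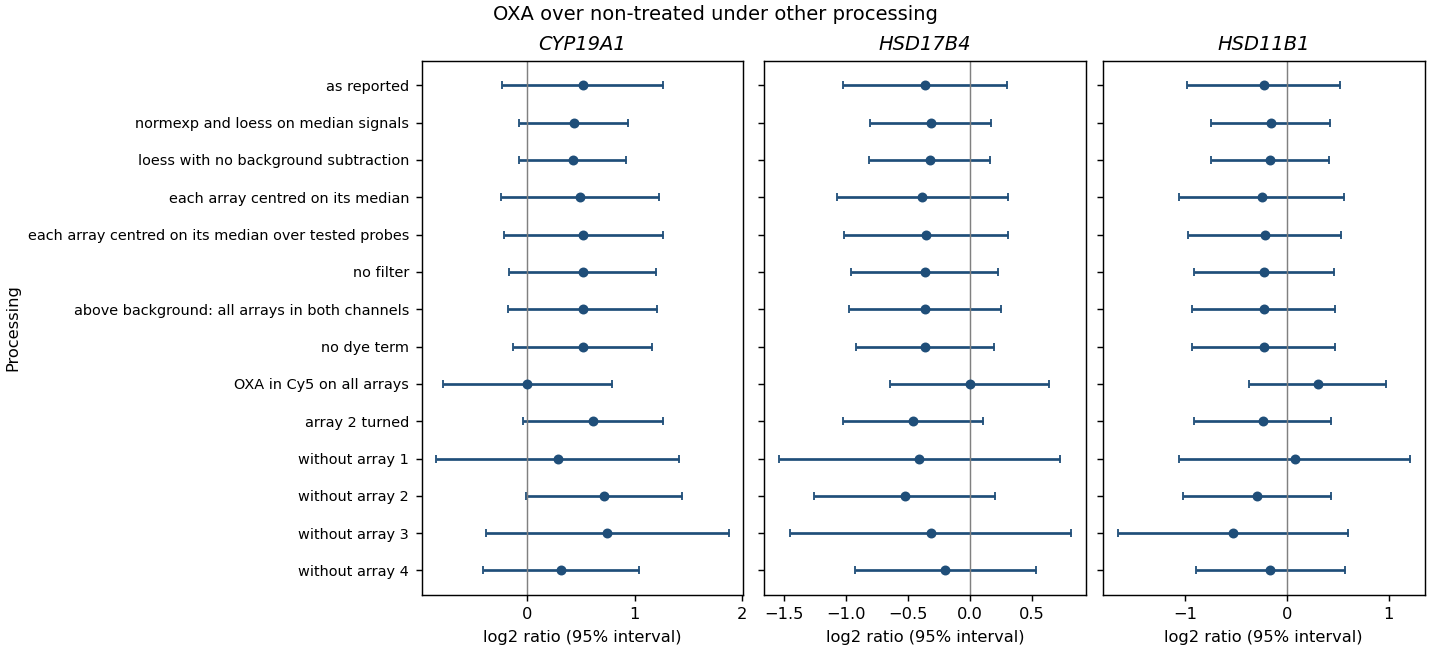
Estimate and 95% interval (limma) of the log2 ratio of OXA over non-treated for 3 enzymes under 14 ways of processing, the reported one on top. All intervals include 0, and CYP19A1 and HSD17B4 come to -0.0020 and -0.0023 with OXA taken as Cy5 throughout.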

How the data were processed

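Version 10.7.3.1 of Agilent Feature Extraction made the scanner files, per the file headers. Each deposited scanner file holds spot and processed signal intensity per dye on a linear scale and a log10 ratio of Cy5 over Cy3. A deposited table gives log2 values for the same arrays. Regressed on the scanner's Cy5 over Cy3 ratio, its columns had a slope of 1 for arrays 1 and 3 but -1 for arrays 2 and 4. With the dyes in the sample labels, this makes them OXA over non-treated. Probes measured in both channels agreed within 0.001 on 100% of occasions. Column medians were 0.10, 0.10, -0.19 and 0.07, and no centring was applied. For probes at background the table gives the ratio of the scanner's substitute signals.

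The main values are those of the table, with detection from the scanner's flag for spots well above background. A probe was tested if 3 or more of its 4 OXA spots, or of its 4 non-treated spots, passed (19505 probes, 44.7%). A gene's value is that of its brightest tested probe. limma 3.58.1 in R 4.3.3 was fitted over all tested probes with terms for OXA and for probe dye bias (2 residual and 4.10 prior degrees of freedom), two-sided, with Benjamini-Hochberg adjustment and a threshold of 0.05, and was tested on simulated data. The small number of arrays limits precision.

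Accessions were matched without versions to RefSeq (Sscrofa11.1), which named 6700 probes. The files name no genome build, so positions are not given, and probe sequences were not used here. The members and lists were chosen with earlier results of these data known. Genes named outside the members are up to 3 per list with the smallest p, and the 5 nearest to CYP19A1. The values of 1 gene that this rule names are not reported here. Any other gene was chosen after its values were seen. Alternatives were loess normalization of median spot signals (normexp with offset 50, or no background subtraction), centring, other filters, no dye term, OXA in Cy5 throughout, array 2 turned, and leaving out each array. The fit with OXA in Cy5 throughout had no dye term, as OXA and dye cannot then be told apart. Centring on tested probes was added after seeing the data.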

Additional observations from a re-analysis of the deposited data

Results flagged for a closer look

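Of 46 sets of 4 array values that were examined, 1 held a value that stood apart by Dixon's criterion. About 5% of sets do so by chance. The HSD11B1 probe A_72_P649421 had a log2 ratio of 0.73 on array 3 and -0.86 to -0.71 on the other arrays. The other 5 HSD11B1 probes were above 0 on array 3 as well.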

How the results depend on the processing

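No alternative called a member probe. Over all tested probes, limma called 0, also in the alternatives with all 4 arrays, but leaving out 1 array gave 1 to 1093 calls, the highest without array 2, and 235 probes had an unadjusted p under 0.05. CYP19A1 had 0.28 to 0.75 when 1 array was left out and -0.0020 with OXA in Cy5 throughout, and 0.42 to 0.61 in the other alternatives fitted. HSD17B4 stayed below 0 in all 14 alternatives (-0.53 to -0.0023). HSD11B1 ran from -0.53 to 0.077 when 1 array was left out and was 0.30 with OXA in Cy5 throughout. The median of the other pathway genes ran from -0.044 to 0.17 when 1 array was left out, and was -0.044 without array 1 and -0.037 without array 4. By the scanner's weaker test for a positive and significant spot, 15 in place of 10 member probes were detected on at least 3 arrays, the added ones being 3 of STAR and 2 of CYP11A1. The share of all probes that pass this weaker test is not given here, so the count of 15 has no background to compare with. A fit without 1 array has a single residual degree of freedom, and 1 array alone in its dye orientation is assumed to vary like the others. Its value then counts as much as the mean of the other orientation, also with array 2 turned. These estimates are therefore not plain means of the arrays.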
